A study of Mus musculus with 4 samples.

Results

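Chromatin accessibility was examined at 9 mouse genes that mark blood cells of the fetal ovary, of 21631 protein-coding genes in the RefSeq gene table. Of these, 6 are genes of macrophages (Tyrobp, Fcer1g, Csf1r, Spi1, Ptprc and Cx3cr1) and 3 are genes of the erythroid lineage (Klf1, Epor and Nfe2). A gene was given every ATAC-seq peak that came within 1 kb of its body. It was also given other peaks whose summit lay nearer to one of its ends than to the end of any other protein-coding gene, up to a distance of 100 kb. By this rule the 9 genes received 10 of 44139 peaks in the Gata2cKO list and 9 of 49394 peaks in the Gata2WT list.

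Macrophages settle in fetal organs, the gonads among them, and clear dying cells. Their identity is set by the ETS factor PU.1, encoded by Spi1, which drives genes such as the CSF1 receptor Csf1r. Red blood cells reach the ovary through its vessels. Their precursors depend on erythropoietin and its receptor, and on the factor KLF1, which acts at globin genes. GATA factors bind regulatory DNA of many blood genes, and GATA2 is best known from blood stem and progenitor cells.

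Accessibility was read by ATAC-seq, which uses a transposase (Tn5) to cut and tag open DNA, in cells of female fetal ovaries of C57BL/6J mice at E14.5 (embryonic day). The 2 Gata2cKO samples came from embryos in which floxed Gata2 was deleted by Cre under the control of Prdm1, which germ cells switch on from their first specification, and the 2 Gata2WT samples came from embryos typed as Gata2WT. Sires were Gata2flox/+ Prdm1-Cre and dams Gata2flox/flox, so every embryo had a floxed allele from its mother; whether the Gata2WT embryos carried Cre, and how many embryos made up a sample, the sources used here do not give. All samples were dissociated with trypsin and enriched for germ cells on beads against SSEA1, with about 10000 cells in a library, so blood cells would be cells left over from this enrichment. The labels call the material ovarian cells.

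The processed data were 1 combined peak list per genotype, without replicate error, so the genotypes are compared by values and counts, with no test and no p-value. Peak values are the authors' own and were not scaled between lists. Gata2 itself was given 3 peaks in the Gata2cKO list and 5 in the Gata2WT list, with a peak at a gene end in Gata2WT alone; the labels do not name the deleted part, so these peaks are no check of the genotypes. A gene end is the first or last annotated base in genome direction, whatever the strand, with 1 kb on either side. All 8 marker genes of germ cells that were checked had a peak at a gene end in both lists. The same held for 4 of 8 genes of supporting and interstitial cells, 3 of 6 genes of endothelium and 62.8% of all protein-coding genes. Another 2 genes of supporting and interstitial cells had one in Gata2WT alone (25.0%), as had 2.29% of all protein-coding genes. The genome background was 2.01 fragments in the Gata2cKO list and 2.19 in the Gata2WT list, and the lowest summit pileup listed was 8 fragments in both. A site under the threshold of the peak caller is not shown to be closed. In a mixed sample, fewer cells with an open site and less opening per cell cannot be told apart.

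The 9 genes had a median of 1.0 peak per gene in each list. Over all protein-coding genes the median was 1.0 in Gata2cKO and 2.0 in Gata2WT. Most peaks of the 9 genes were in both lists. Of the 10 Gata2cKO peaks, 7 overlapped a Gata2WT peak by at least 1 bp and 3 did not (30.0%, 95% Wilson interval 10.8 to 60.3, counting error only); over all peaks of the Gata2cKO list, 19.7% did not. Of the 9 Gata2WT peaks, 7 overlapped a Gata2cKO peak and 2 did not (22.2%, 6.32 to 54.7), against 28.5% of all Gata2WT peaks. Both intervals contain the share of the whole list. The 3 single-list peaks of Gata2cKO belonged to Tyrobp, Csf1r and Cx3cr1, all macrophage genes, and the 2 of Gata2WT belonged to Nfe2, an erythroid gene. This split rests on few and weak peaks and was not tested. Counted only from a −log10 q of 5, against the whole other list, the single-list peaks were 1 of 6 in Gata2cKO, of Tyrobp, and 0 of 7 in Gata2WT. Among all peaks from 5 to 10, 12.5% in Gata2cKO and 20.5% in Gata2WT were in that list alone, with lower shares among stronger peaks. With both lists cut at 5, Gata2WT had 1 each of Spi1 and Cx3cr1 instead of those of Nfe2. These were shared sites whose Gata2cKO partners, at 3.25 and 3.43, fell under the cut, so they do not bear on the split. Fcer1g and Ptprc received no peak from either list, as did 21.0% of all protein-coding genes.

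**Figure D1:**
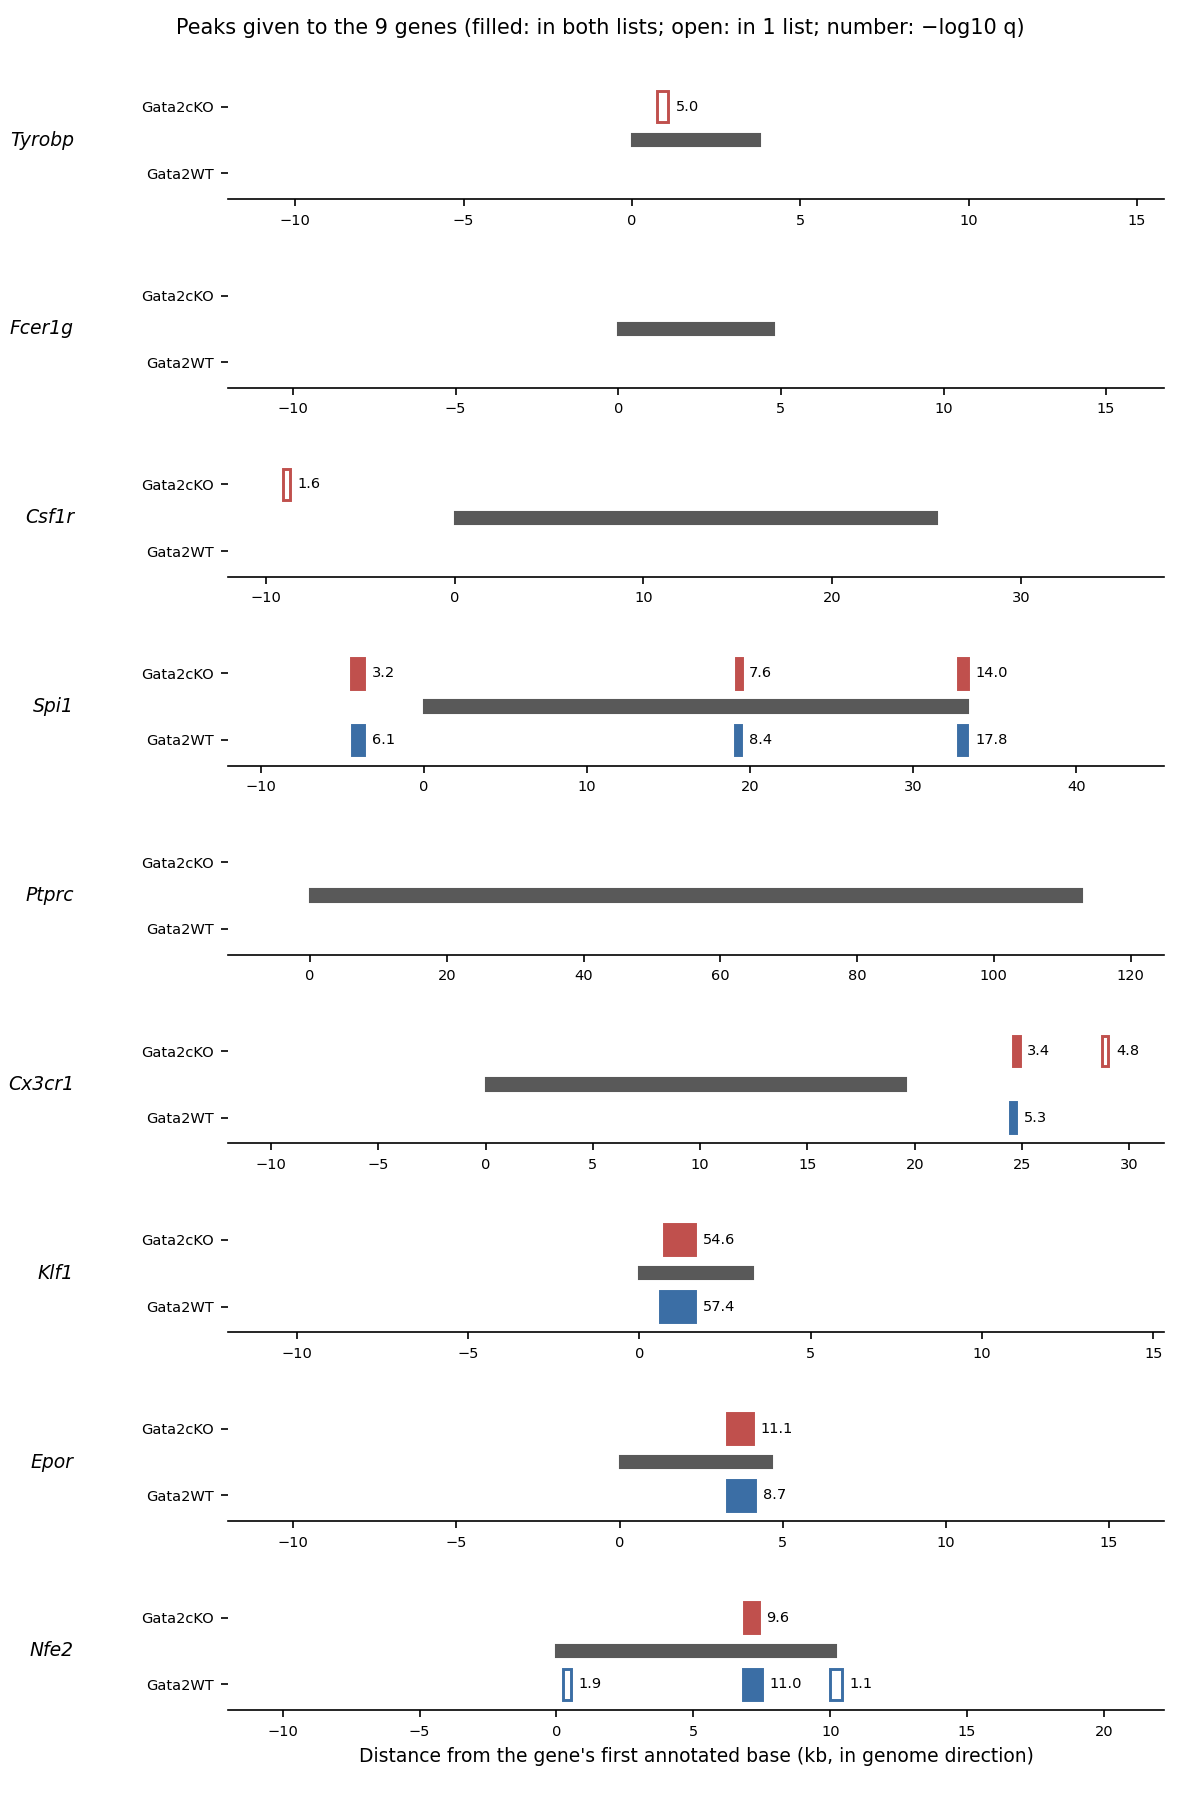
Peaks given to each of the 9 genes, drawn by distance in kb from the first annotated base of the gene (dark bar) in genome direction, with the Gata2cKO list above the gene and the Gata2WT list under it. Filled boxes overlap a peak of the other list, open boxes do not, and the number beside a box is its −log10 q; Spi1, Klf1, Epor and the inside of Nfe2 carry filled boxes in both lists, while Fcer1g and Ptprc carry none.

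Tyrobp and Fcer1g encode DAP12 and the Fc receptor gamma chain, short adaptors that pass on signals from activating receptors of myeloid cells. Tyrobp (chr7:30413782-30417582, GRCm38) had a peak in the Gata2cKO list at chr7:30414519-30414856, inside the gene with the summit 950 bp from its first base. Its −log10 q was 5.01 at a fold enrichment of 4.38, with 14 fragments at the summit over a local background of 2.43. The Gata2WT list held no peak in Tyrobp, and its nearest one lay 6.65 kb from the Gata2cKO peak. Tyrobp was thus the 1 gene of the 9 with an end peak in Gata2cKO alone, a status shared by 1.30% of all protein-coding genes. Hcst, which encodes another adaptor, lies 0.13 kb from the last base of Tyrobp, and the Tyrobp peak was given to no other gene.

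Fcer1g (chr1:171229572-171234349) had no peak in either list, although the region around it was not bare. Within 100 kb of the gene lay 12 Gata2cKO peaks and 14 Gata2WT peaks, none of which was given to it. The nearest Gata2WT peak was 6.68 kb away, with a −log10 q of 50.6, and was given to Apoa2 and Tomm40l.

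Csf1r and Cx3cr1 encode surface receptors, for the growth factor CSF1 and for the chemokine fractalkine. Csf1r (chr18:61105572-61131139) had no peak in its 25.6 kb body in either list. The Gata2cKO list held a weak peak outside it at chr18:61096474-61096843, 8.82 kb before its first base, with a −log10 q of 1.59 and 9 fragments at the summit, 1 more than the lowest pileup listed. A Gata2cKO peak nearer to the gene, 3.58 kb past its last base with a −log10 q of 1.16, was given to the neighbouring gene Hmgxb3. The Gata2WT list gave no peak to Csf1r. Its nearest peak to the gene was 17.4 kb away and was given to Pdgfrb, a growth factor receptor gene, and within 100 kb there were 9 Gata2cKO and 7 Gata2WT peaks.

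Cx3cr1 (chr9:120048683-120068296, minus strand) likewise had no peak in the gene, but had peaks upstream of its start in both lists. The nearer site was shared, at chr9:120073249-120073568 in Gata2cKO and chr9:120073142-120073406 in Gata2WT, 5.04 and 5.10 kb from the gene. Its −log10 q was 3.43 in the Gata2cKO list and 5.33 in the Gata2WT list, with 12 and 15 fragments at the summit. The intervals, 320 and 265 bp wide, overlapped by 158 bp and their summits lay 61 bp apart. The farther site, chr9:120077420-120077704, 9.25 kb from the gene, was in the Gata2cKO list alone, with a −log10 q of 4.77 and 15 fragments. The nearest gene of any kind to each of these peaks was Gm33858, a long noncoding RNA gene, 2.28 and 6.49 kb from the Gata2cKO summits and 2.34 kb from the Gata2WT summit.

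Ptprc encodes CD45, a phosphatase that white blood cells carry on their surface. At 113 kb (chr1:138062859-138175756, minus strand) it is the longest of the 9 genes, and no peak of either list lay inside it or within 100 kb of it. The nearest peak was 134 kb away in the Gata2cKO list, with a −log10 q of 2.88, and 164 kb away in the Gata2WT list, with a −log10 q of 11.5. Of the 2074 protein-coding genes at least as long, 3.52% had no peak in the gene or within 1 kb of it in either list, and 2.89% were given no peak at all. Each of the other 8 genes had at least 9 Gata2cKO peaks and 7 Gata2WT peaks within 100 kb.

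Spi1 (chr2:91082374-91115759), the gene of PU.1, was the 1 macrophage gene of the 6 with an end peak in both lists, and all of its peaks were shared. Its strongest site lay just inside the last base, at chr2:91115108-91115714 in Gata2cKO and chr2:91115145-91115710 in Gata2WT, with the summit 352 and 453 bp from that base. The −log10 q was 14.0 in the Gata2cKO list and 17.8 in the Gata2WT list, and the summit held 29 and 34 fragments. A site inside the gene, chr2:91101516-91101872 in Gata2cKO, had 7.62 and 8.43. The third site lay outside, 3.75 and 3.85 kb before the first base, with a −log10 q of 3.25 in the Gata2cKO list and 6.05 in the Gata2WT list. By −log10 q, all 3 sites stood at a lower percentile of the Gata2cKO list than of the Gata2WT list. The outside site differed most, at percentile 23.5 of the Gata2cKO list and 46.7 of the Gata2WT list. A percentile is the share of weaker peaks in a list. The Gata2WT list held more weak peaks, 5770 under a −log10 q of 2 against 4070, so no change is read from these percentiles.

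Among the erythroid genes, Epor encodes the receptor for erythropoietin, which keeps red cell precursors alive. Epor (chr9:21958897-21963576, minus strand) had a single shared peak inside the gene, at chr9:21962196-21962991 in Gata2cKO and chr9:21962201-21963054 in Gata2WT. It had a −log10 q of 11.1 in the Gata2cKO list and 8.69 in the Gata2WT list, with 25 and 23 fragments at the summit. The peak began 585 bp downstream of the annotated transcription start in Gata2cKO and 522 bp downstream in Gata2WT. Its summit was 918 bp from the last base of the gene in Gata2cKO and 1065 bp in Gata2WT. It counted as an end peak in both lists because its interval came within 1 kb of that base. Both lists held 15 peaks within 100 kb of Epor. The summits lay 147 bp apart, the widest shift among the shared sites of the 9 genes.

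Klf1, the gene of the erythroid Krüppel-like factor, carried the strongest peak of all 9 genes in both lists. Klf1 (chr8:84901982-84905291, plus strand) is 3.31 kb long, and the peak, chr8:84902712-84903619 in Gata2cKO and chr8:84902575-84903621 in Gata2WT, lay wholly inside it. The summit was 1323 bp from the first base in Gata2cKO and 1320 bp in Gata2WT. The peak counted as an end peak because its interval, not its summit, came within 1 kb of that base. The −log10 q was 54.6 in the Gata2cKO list and 57.4 in the Gata2WT list, the fold enrichment 10.2 and 10.6, and the summit held 84 and 86 fragments, with the summits 3 bp apart. It stood at percentile 91.0 of the Gata2cKO list and 89.5 of the Gata2WT list by −log10 q. The peak began 730 bp downstream of the annotated start in Gata2cKO and 593 bp downstream in Gata2WT. Klf1 lies among many other peaks, with 31 within 100 kb in each list.

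The promoter sequences of Klf1 and Epor are shown because the peaks of both genes lay downstream of them, and that of Ptprc because the gene had no peak at all. Each window runs from 250 bases before to 50 bases after an annotated start (RefSeq, GRCm38.p6), read in the direction of the gene, and capitals mark matches to AGATAA or TGATAA, 6-letter forms of the GATA motif, on either strand, and to the E-box CAGCTG.
Klf1, chr8:84901732-84902031, plus strand: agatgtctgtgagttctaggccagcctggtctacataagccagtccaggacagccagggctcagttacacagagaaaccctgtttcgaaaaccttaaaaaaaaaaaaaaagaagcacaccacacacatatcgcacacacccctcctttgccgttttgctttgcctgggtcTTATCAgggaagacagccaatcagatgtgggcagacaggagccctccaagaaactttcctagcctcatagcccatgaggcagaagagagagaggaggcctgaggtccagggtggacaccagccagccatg
Epor, chr9:21963527-21963826, minus strand: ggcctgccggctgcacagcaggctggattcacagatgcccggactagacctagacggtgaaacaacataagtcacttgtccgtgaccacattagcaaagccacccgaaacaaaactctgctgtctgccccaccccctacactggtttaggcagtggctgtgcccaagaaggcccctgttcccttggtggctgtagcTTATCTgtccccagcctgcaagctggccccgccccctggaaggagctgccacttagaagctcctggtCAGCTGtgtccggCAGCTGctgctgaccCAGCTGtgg
Ptprc, chr1:138175077-138175376, minus strand: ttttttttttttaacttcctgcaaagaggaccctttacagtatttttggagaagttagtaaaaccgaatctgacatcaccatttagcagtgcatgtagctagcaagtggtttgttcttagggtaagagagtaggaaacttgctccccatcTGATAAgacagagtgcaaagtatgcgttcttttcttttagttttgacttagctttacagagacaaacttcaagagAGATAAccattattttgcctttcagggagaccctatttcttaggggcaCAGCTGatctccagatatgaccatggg
Klf1 held 1 GATA match, TGATAA on the opposite strand, whose first base in the window lay at −80 from the start, and Epor held 1, AGATAA on the opposite strand at −54. Epor also held 3 E-box matches, at positions 14, 27 and 42, counted with the start as 1. This Ptprc window held a GATA match at −100 and another at −25, and an E-box at 24, while the window of its other annotated start held no match. Of all 32619 promoter windows of the table, 11.2% held AGATAA, 9.0% TGATAA and 16.4% CAGCTG. The windows of Fcer1g and Cx3cr1 held 1 CAGCTG each and no GATA match. No window of these 5 genes held the PU.1 core GAGGAAGT (3.22% of all windows), the KLF core CCACACCC (3.57%), the NFE2 core TGAGTCA (5.22%) or the longer NF-E2 motif that contains it (0.156%). A match describes letters in these windows and is not a site in use.

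None of these promoter windows was reached by a peak. The 5 genes with an entry in the promoter table (Fcer1g, Ptprc, Cx3cr1, Klf1 and Epor) had 6 windows, of which 0 overlapped a Gata2cKO peak and 0 a Gata2WT peak. Of 21045 windows of protein-coding genes, 58.8% overlapped a Gata2cKO peak and 59.6% a Gata2WT peak. Between the Klf1 peak and its window lay 0.681 kb in Gata2cKO and 0.544 kb in Gata2WT, and between the Epor peak and its window 0.536 and 0.473 kb. Counted at single bases, 0 of the 9 genes had their first or last base inside a Gata2cKO peak and 1 of 9, Nfe2, inside a Gata2WT peak, against 51.4% and 52.3% of all protein-coding genes.

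Nfe2 encodes the p45 subunit of NF-E2, a bZIP factor of erythroid cells and megakaryocytes, and was the 1 gene of the 9 with an end peak in Gata2WT alone, as were 2.29% of all protein-coding genes. Its main site was shared and lay inside the gene (chr15:103248212-103258403), at chr15:103255069-103255601 in Gata2cKO and chr15:103255033-103255703 in Gata2WT. It had a −log10 q of 9.57 in the Gata2cKO list and 11.0 in the Gata2WT list, with 22 and 26 fragments and summits 10 bp apart. The Gata2WT list added a weak peak at each end of the gene. That at chr15:103248433-103248725 had a −log10 q of 1.88 and 9 fragments, and that at chr15:103258193-103258636, which covers the last base, had 1.13 and 10 fragments over a local background of 3.45. Both dropped out when the Gata2WT list was shortened to the 44139 strongest peaks, the length of the Gata2cKO list, and then no gene had an end peak in Gata2WT alone. The next gene, Hnrnpa1, ends 1.51 kb from the first base of Nfe2. Within 100 kb of Nfe2 lay 15 Gata2cKO peaks and 22 Gata2WT peaks.

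Set side by side, 6 of the 7 shared sites had the lower −log10 q in the Gata2cKO list and 1, that of Epor, the higher. Over all shared Gata2cKO peaks, 65.4% had a Gata2WT partner with a higher −log10 q. The values depend on the depth and background of each list, so no change is read from them. Summits of the 7 pairs were 3 to 147 bp apart with a median of 61 bp, and the median over all 35429 shared Gata2cKO peaks was 46 bp. Within each list, 5 peaks of the 9 genes were stronger than the list's median −log10 q, which was 7.14 in Gata2cKO and 6.72 in Gata2WT. The 3 erythroid genes supplied 3 of these 5 in each list and Spi1 supplied the other two.

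**Figure D2:**
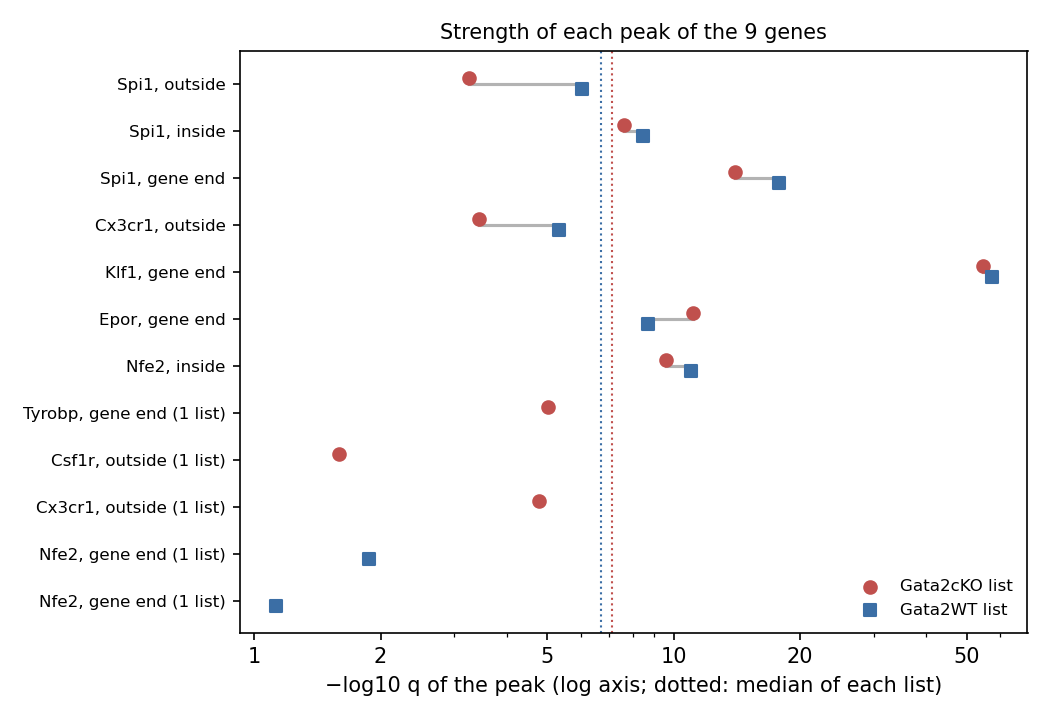
The −log10 q of each peak of the 9 genes on a log axis, with Gata2cKO peaks as circles and Gata2WT peaks as squares, shared sites joined by a line, and the list medians dotted. The Klf1 site stands far to the right in both lists (54.6 and 57.4), and the 5 peaks found in 1 list alone lie to the left of both medians.

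All 5 single-list peaks were weaker than the median of their list, and weak peaks were often absent from the other list throughout the genome. The Tyrobp peak, the strongest of them, lay at percentile 38.4 of its list, the single-list Cx3cr1 peak at 37.0 and the Csf1r peak at 6.53. The Nfe2 peaks lay at percentiles 7.94 and 0.275 of the Gata2WT list. Among all Gata2cKO peaks, 59.7% of those with a −log10 q under 2 were absent from the Gata2WT list. The share was 38.9% from 2 to 5 and 12.5% from 5 to 10. The peaks of Csf1r, Cx3cr1 and Tyrobp fell into these 3 ranges, 1 in each, that of Tyrobp, at 5.01, just over the lower limit. Among all Gata2WT peaks, 73.6% of those under 2 were absent from the Gata2cKO list, the range of both Nfe2 peaks. At a −log10 q of 10 and over, all 3 peaks of the 9 genes in each list were shared.

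**Figure D3:**
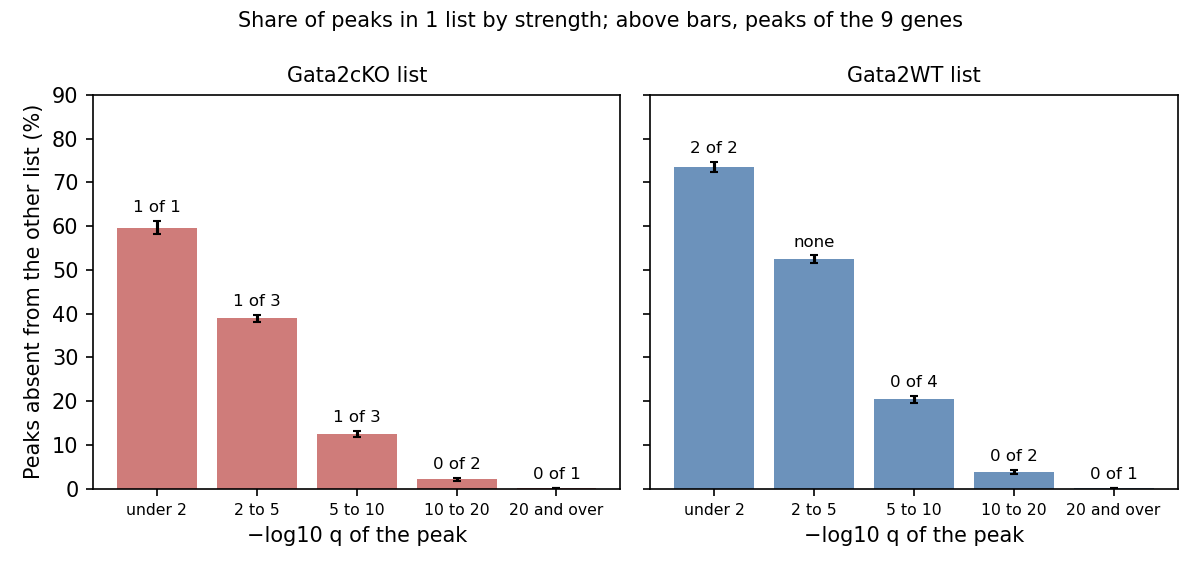
Share of peaks with no overlapping peak in the other list (%), by the −log10 q of the peak, for the whole Gata2cKO list (left) and the whole Gata2WT list (right), with 95% Wilson intervals that cover counting error only. Numbers above the bars count the single-list peaks among those of the 9 genes in each range; the share drops from 59.7% and 73.6% in the weakest range to under 1% in the strongest.

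Among other genes of the same blood lineages, most had no end peak in either list. Of 32 further macrophage genes, 10 had an end peak in both lists (31.3%), 0 in Gata2cKO alone, 1 in Gata2WT alone and 21 in neither. Over all protein-coding genes the shares were 62.8% in both, 1.30% in Gata2cKO alone, 2.29% in Gata2WT alone and 33.6% in neither. The 1 macrophage gene in Gata2WT alone was Mpeg1, which encodes the pore-forming protein perforin-2, with a −log10 q of 2.62. Of 27 further erythroid genes found in the table, 8 had one in both lists (29.6%), 0 in Gata2cKO alone, 1 in Gata2WT alone, Rhd of the Rh blood group (1.11), and 18 in neither. All 7 globin genes of that list, singled out after their values were seen, had no peak in either list. Over all protein-coding genes, 21.0% were given none in either list. Some of the globin genes have near-identical copies, and how reads that map to several places were treated is not known here. Promoter windows were overlapped at 5 of 25 macrophage genes and 5 of 20 erythroid genes with an entry, in each list, and at 7 of 7 germ cell genes. Over all protein-coding genes with an entry, the count was 10616 of 17274 in Gata2cKO and 10756 of 17274 in Gata2WT.

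Over all their peaks, the further macrophage genes had 20 of 75 Gata2cKO peaks in that list alone (26.7%, 18 to 37.6) and 15 of 70 Gata2WT peaks in that list alone (21.4%, 13.4 to 32.4). The erythroid genes had 8 of 41 (19.5%, 10.2 to 34.0) and 21 of 52 (40.4%, 28.2 to 53.9). The intervals cover counting error only and take the peaks of 1 gene as independent. The shares over each whole list, 19.7% and 28.5%, lie inside all 4, the second just over the lower limit of 28.2 for erythroid genes in Gata2WT. Over the peaks given to protein-coding genes alone, 19.3% of Gata2cKO peaks and 27.7% of Gata2WT peaks were in 1 list, and the second of these lies just under the erythroid interval of the Gata2WT list. Peaks of these lists had a median −log10 q of 4.21 in Gata2cKO and 5.91 in Gata2WT for macrophage genes and of 6.22 and 5.01 for erythroid genes, under the list medians of 7.14 and 6.72. Whether the blood genes differ between genotypes was not tested, since each genotype had 1 list.

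**Figure D4:**
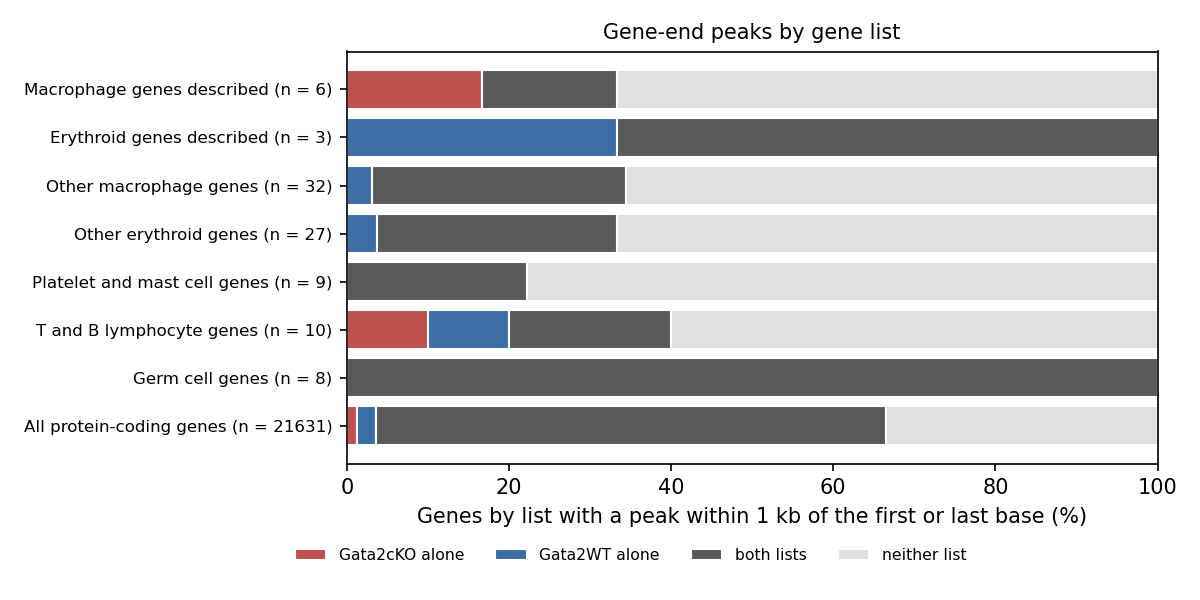
Share of genes in each list (%) with a peak at a gene end in Gata2cKO alone, in Gata2WT alone, in both lists or in neither. The grey band for neither list covers 66.7% of the 6 macrophage genes described and 0% of the 3 erythroid ones, 65.6% and 66.7% of the further macrophage and erythroid genes, and 33.6% of all protein-coding genes; germ cell genes have peaks in both lists throughout.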

How the data were processed

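ATAC-seq was run on 4 samples, 2 per genotype. Per the submitters' processing notes reads were handled on GRCm38 (mm10) with tools that include MACS2 2.2.6 for peaks, Bowtie2 2.3.5.1 for alignment, Trimmomatic 0.39, Picard 2.23.0, bedtools 2.29.2 and SAMtools. The notes as used here give neither parameters nor how replicates were combined. The deposited fold enrichment (a ratio), −log10 p, −log10 q and score of each peak are the authors' values within a list; the score was not used.

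Rows with the same interval were merged, keeping the strongest summit (52241 Gata2cKO and 58367 Gata2WT rows), on the autosomes and X. The summit pileup and local background were solved from fold enrichment and −log10 p, and the pileup came out whole, within 0.001 in −log10 p, for 100% of peaks in both lists. Pileup, gene and overlap steps were tested on simulated data and recovered all planted values (2915, 800 and 800). Named genes were the 9 genes, with their peaks, and further list genes with an end peak in a single list. The genes and lists were chosen with earlier results of these data known. Python 3.11.15, pandas 2.3.3, scipy 1.17.1 and statsmodels 0.14.6 were used. Alternatives covered overlap, peak threshold, list length, gene window, distance and the genes that may claim a peak.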

Additional observations from a re-analysis of the deposited data

Results flagged for a closer look

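Rows on chromosome Y lay outside every comparison above: the Gata2cKO list held 5 and the Gata2WT list 10, in samples labelled female. Where they come from was not tested.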

How the results depend on the processing

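Of 59 recomputed counts, 48 stayed within 1.5 times the reported one. With only peaks of a −log10 q of at least 5 in both lists, the Gata2cKO peaks of the 9 genes numbered 6 and those absent from the Gata2WT list 1 (Tyrobp), and no gene (0) had an end peak in Gata2WT alone. The Gata2WT peaks in that list alone still numbered 2, but were 1 of Spi1 and 1 of Cx3cr1 in place of those of Nfe2, since their Gata2cKO partners fell under the limit. Counting single-list peaks only from a −log10 q of 5 left 1 in Gata2cKO and 0 in Gata2WT. The 1 left, of Tyrobp, had a −log10 q of 5.01, just over this limit, and that of Cx3cr1, at 4.77, fell just under it. At a −log10 q of at least 2, and with lists of equal length, 0 Gata2WT peaks were in that list alone and 0 genes had an end peak in Gata2WT alone. With 0 bp in place of 1 kb around the gene ends, 0 genes had an end peak in both lists, 0 in Gata2cKO alone and 1, Nfe2, in Gata2WT alone. With noncoding genes allowed to claim peaks, all peaks of Cx3cr1 went to another gene, and the 9 genes kept 8 peaks in each list. Reciprocal overlap turned the shared Cx3cr1 site into single-list peaks, for 4 in Gata2cKO and 3 in Gata2WT. No paired analysis was possible because the samples of each genotype were combined in 1 list, and for the same reason no replicate was left out in turn. The weak peaks of 9 or 10 fragments stand close to the lowest listed pileup of 8, and how depth bears on them was not tested.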

Other observations

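Most genes of other blood cells that were listed had no end peak in either list, whereas 62.8% of all protein-coding genes had one in both lists and 33.6% in neither. Of 9 platelet and mast cell genes, 2 had an end peak in both lists, Kit (−log10 q of 47.8 in Gata2cKO and 61.7 in Gata2WT), the receptor for stem cell factor that germ cells use as well, and Hdc (6.73 and 12.3), which makes histamine; the other 7 had none in either list. Of 10 T and B lymphocyte genes, 2 had one in both lists, Cd79a of the B cell receptor in Gata2cKO alone (1.98), Pax5, a B cell factor, in Gata2WT alone (2.86), and 6 in neither. Over their peaks, 5 of 18 Gata2cKO peaks and 8 of 21 Gata2WT peaks of the platelet and mast cell genes were in 1 list alone, and 5 of 22 and 10 of 27 of the lymphocyte genes, against 19.7% of all Gata2cKO peaks and 28.5% of all Gata2WT peaks. These shares were 27.8% and 38.1% for the platelet and mast cell genes and 22.7% and 37.0% for the lymphocyte genes.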
